A study of Mus musculus with 16 samples.

Results

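The comparison described here is that of kidney glomerular extracts from female mice that lack oestrogen receptor α (ERα, the product of Esr1) with extracts from wild type females, both without any serum injection. Its members were chosen by array title: 2 arrays of untreated knockout mice and 2 of untreated wild type mice, 4 of the 16 arrays of the series. The wild type mice were C57Bl/6 and the knockout mice are labelled B6.ER⍺KO. All 16 mice were female, and the RNA came from glomeruli prepared from kidney cortex. The other 12 arrays are of the same genotypes 18 hours, 6 days or 2 weeks after an intraperitoneal dose of 8 µl/g of sheep nephrotoxic serum, which binds the glomerular basement membrane and sets off nephritis. Each genotype has 2 mice at each time. The labels do not say how Esr1 was disrupted, in which cells, or how old the mice were. In a mouse without ERα in any cell, circulating hormones can differ as well as the kidney's own response, and the 2 cannot be told apart in these groups.

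ERα is a nuclear receptor that binds oestradiol and switches genes on or off from DNA sites called oestrogen response elements. It also acts in the hypothalamus and pituitary, where oestradiol restrains the release of gonadotrophins. The mouse kidney is one of the most sex-biased organs. Its proximal tubule carries carriers and metabolic enzymes at very different levels in males and females, many of them set by testosterone and others by the sex-specific rhythm of growth hormone or by prolactin.

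Values are deposited log2 signals, 1 probeset for each of 30142 genes. The transformation behind them is not stated, and 152 genes have a mean over the 16 arrays above 16, more than the log2 of a 16-bit scanner's range, so the values may not be plain log2 intensities. Differences are therefore given in log2 units and not as folds, and this holds most for genes with values above 16, such as Slc7a13, Ugt2b37, Cyp2e1 and Kap in the knockout. The array medians of the 4 untreated arrays lay between 5.58 and 5.63, which gives a level for a gene that is dim. A gene was called when its Benjamini-Hochberg adjusted p from limma, a moderated linear model, was under 0.05. Xist, the RNA that silences one X chromosome in females, lay between 16.56 and 16.88 on the 4 arrays. The Y-linked genes Kdm5d, Uty and Eif2s3y lay between 5.29 and 6.03, near the array medians. Their differences were 0.47 to 0.50, with an unadjusted p under 0.05 for all 3 and no call by limma. The Esr1 probeset read 7.04 and 7.0 in wild type and 7.40 and 7.56 in knockout. The knockout arrays were thus the higher ones, by 0.46 ± 0.10 (SE, n = 2 and 2), with a limma adjusted p of 0.185. Which exons this probeset covers and which were deleted is not known here, so Esr1 does not check the genotype labels. On the 18-hour replicate 2 arrays, all 124 genes described below differ between the genotypes in the opposite direction to the untreated arrays. The comparison of untreated mice does not use those arrays.

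Between untreated knockout and wild type glomerular extracts, 124 of 30142 genes were called by limma, or 0.411% of those tested. Of these, 80 were higher in the knockout (0.265%) and 44 were lower (0.146%). At an unadjusted p under 0.05 the count was 4120. The smallest absolute difference among called genes was 0.817, and 26 of the 124 are predicted transcripts, pseudogenes, small RNAs or similar loci. Over all genes the median difference was 0.012 and 53.3% were positive. With n = 2 a group, this count rests on the spread within the 4 arrays. A fit of all 16 arrays called 0 genes, with 0.397 the lowest adjusted p and 1564 genes under 0.05 before adjustment. The median standard error of the 124 genes was 0.743 there against 0.151 in the 4 arrays. The 16 arrays include the 18-hour replicate 2 arrays, on which all 124 genes differ in the opposite direction. Without those arrays the median standard error of the 124 genes was 0.462, still above 0.151. The 124 genes were chosen by the 4-array fit, which favours genes with a small spread there. What widened the spread was not tested. A fit of 14 arrays, without the 18-hour replicate 2 arrays, called 51 genes (0.169%), 12 higher and 39 lower, and 35 of them were among the 124. Leaving out any single untreated array left 0 calls by limma (lowest adjusted p 0.0858 to 0.265, and 2288 to 4619 genes past 0.05 without adjustment).

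**Figure D1:**
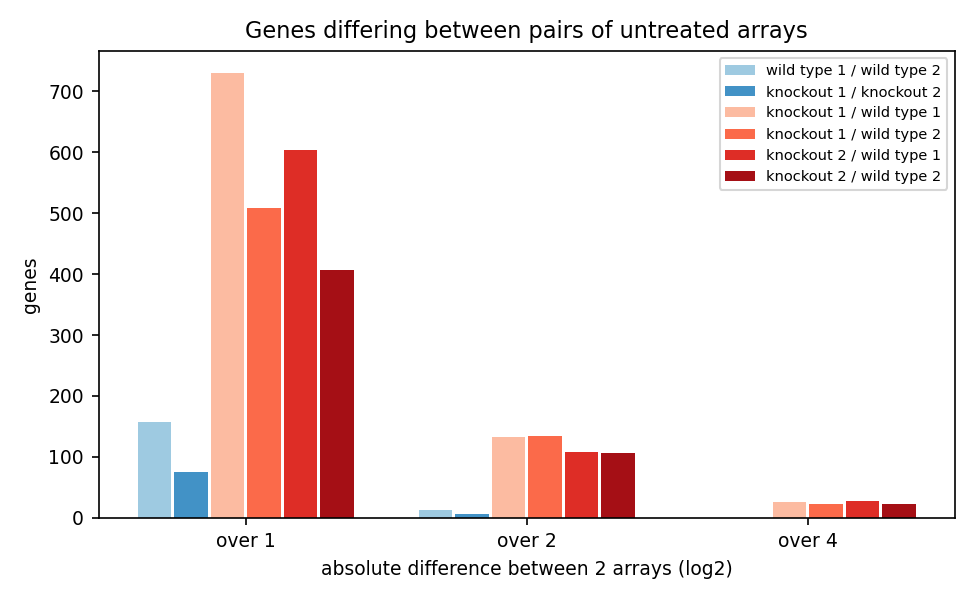
Number of genes (vertical axis) whose deposited log2 values differ by over 1, 2 or 4 between 2 untreated arrays, for the 2 pairs within a genotype (blue) and the 4 pairs between genotypes (red). At over 4 the pairs within a genotype have 0 genes and the pairs between genotypes have 22 to 27.

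The spread within a genotype was small for large differences. The wild type arrays differed from each other by over 2 log2 units at 13 genes, and the knockout arrays at 6. Each knockout array differed from each wild type array by over 2 at 106 to 135 genes. At over 4 units, 0 genes separated arrays of a genotype and 22 to 27 separated arrays of different genotypes, as the plot of gene counts by array pair shows.

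Genes known to be higher in male than in female mouse kidney were higher in the female knockout. The members of this list, like those of the other lists, were chosen with earlier results of these data known. Its counts are thus no independent test. All 18 members were measured, all 18 differences were positive, 10 were called higher (0.265% of all genes) and 0 lower. Their median difference was 5.58, against 0.012 over all genes. The mean of the list was 10.29 and 10.00 on the wild type arrays and 15.34 and 14.72 on the knockout arrays.

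Slc7a13, a cystine carrier of the proximal tubule, had the greatest difference of all called genes. It read 8.00 and 5.54 in wild type and 16.98 and 16.64 in knockout, a rise of 10.05 ± 0.80 (SE, n = 2 and 2; limma adjusted p = 0.028). Both knockout arrays lay far above both wild type arrays, although the wild type arrays were themselves 2 units or more apart. Ugt2b37, which attaches glucuronic acid to steroids and foreign compounds, read 8.95 and 8.66 in wild type and 17.04 and 16.96 in knockout. Its rise of 8.20 ± 0.16 had the smallest adjusted p of the table, 0.00185 by limma. The arrays of each genotype agreed to within 0.3 units for this gene.

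Cyp2j13, of a P450 subfamily that makes epoxides of arachidonic acid, read 9.01 and 7.46 in wild type and 16.26 and 15.99 in knockout (7.89 ± 0.51, limma adjusted p = 0.0192). Cyp2e1, which oxidises ethanol and acetone, read 11.91 and 10.88 in wild type and 18.18 and 17.59 in knockout (6.49 ± 0.41, limma adjusted p = 0.0179). Cyp7b1, the hydroxylase that inactivates oxysterols and some androgen metabolites, read 5.18 and 5.04 in wild type and 11.27 and 11.60 in knockout. The wild type level of Cyp7b1 lay below the array medians, so this gene went from dim to well detected, by 6.32 ± 0.15 (limma adjusted p = 0.00204). Acsm3, a medium-chain acyl-CoA synthetase, read 7.97 and 6.36 against 14.53 and 13.50 (6.85 ± 0.61, limma adjusted p = 0.0374). The remaining called members of the list were Ugt2b5 (5.33), Timd2, a receptor that takes up ferritin (4.23), Slc22a30 (3.03) and Nudt19, which breaks down coenzyme A in peroxisomes (1.46). Of these 10 genes, Cyp2j13, Cyp2e1, Ugt2b37 and Timd2 were also called by limma over 14 arrays.

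Other members of the list were as far apart by level but varied more between mice. Slco1a1, an organic anion carrier, read 7.97 and 5.79 in wild type and 14.89 and 13.12 in knockout, with a limma adjusted p of 0.0778. Cyp4a12a, the androgen-dependent fatty acid hydroxylase, read 8.37 and 7.21 against 15.85 and 12.89 (limma adjusted p = 0.106). The pair of knockout arrays differed by 1.77 for Slco1a1 and by 2.95 for Cyp4a12a. Kap, the androgen-regulated protein of the proximal tubule, read 19.33 and 19.06 in wild type and 19.69 and 19.72 in knockout, at the top of the measured range of 19.93. Its difference of 0.51 missed the threshold (limma adjusted p = 0.36).

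**Figure D2:**
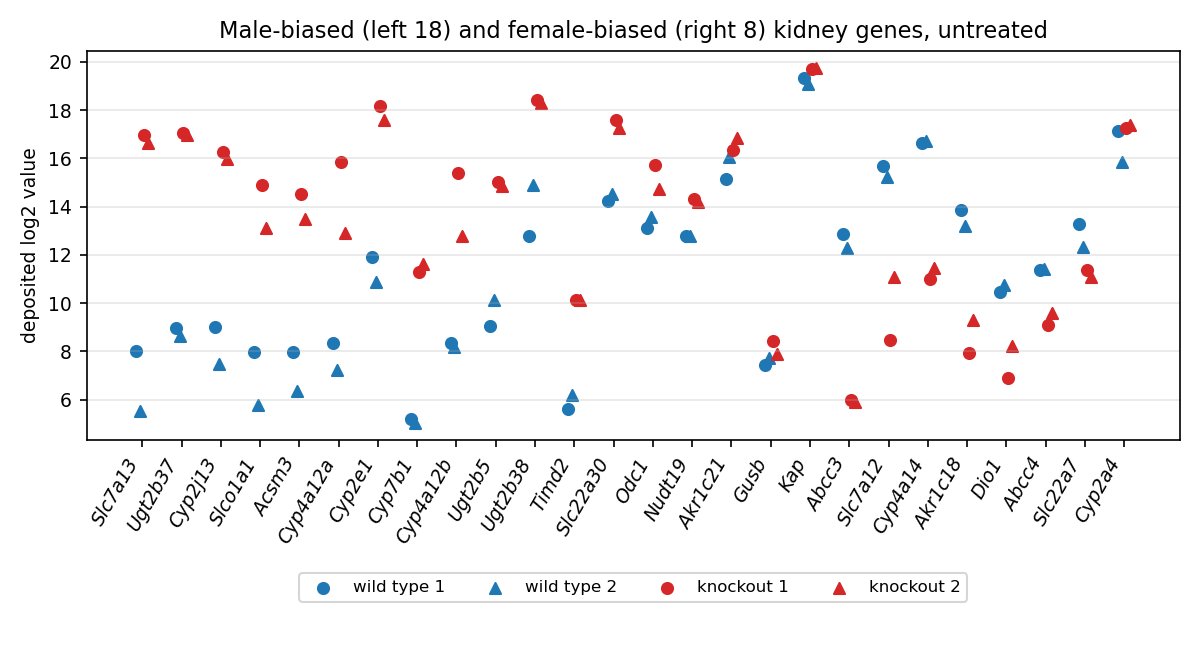
Deposited log2 value (vertical axis) of 18 genes known to be higher in male mouse kidney (left) and 8 known to be higher in female mouse kidney (right) on the 4 untreated arrays; circles and triangles are replicates 1 and 2, blue wild type and red knockout. Slc7a13 reads 16.98 and 16.64 in knockout against 8.00 and 5.54 in wild type, and Abcc3 reads 5.98 and 5.92 against 12.85 and 12.29.

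Genes known to be higher in female kidney were lower in the knockout. Of 9 listed genes 8 were measured, 4 were called lower (0.146% of all genes) and 0 higher, and the median difference was -3.98. The list mean was 13.91 and 13.47 in wild type and 9.75 and 10.50 in knockout. Abcc3, an exporter of conjugated organic anions, read 12.85 and 12.29 in wild type and 5.98 and 5.92 in knockout, a difference of -6.62 ± 0.20 (limma adjusted p = 0.00423). Its knockout values lay close to the array medians. Cyp4a14, a hydroxylase of fatty acids at their last carbon, read 16.65 and 16.72 in wild type and 11.01 and 11.47 in knockout (-5.45 ± 0.20, limma adjusted p = 0.00497). Akr1c18, the enzyme that inactivates progesterone, read 13.86 and 13.18 against 7.95 and 9.29 (-4.90 ± 0.49, limma adjusted p = 0.044). Abcc4, a second exporter of this family, had a difference of -2.04 (limma adjusted p = 0.0419).

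Among the members not called, Slc7a12 read 15.67 and 15.22 in wild type and 8.48 and 11.08 in knockout (limma adjusted p = 0.101). Dio1, which activates thyroid hormone, read 10.47 and 10.77 against 6.90 and 8.23 (limma adjusted p = 0.0975). In both genes the knockout arrays were more than 1 unit apart. Cyp2a4, a steroid hydroxylase, was the only measured member with a positive difference (0.83, limma adjusted p = 0.489).

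The largest rises outside these lists included secreted proteins and enzymes that build sugar chains. Pzp, a protease inhibitor of the α2-macroglobulin family, read 6.29 and 5.39 in wild type and 14.06 and 13.09 in knockout (7.74 ± 0.43, limma adjusted p = 0.0131). Azgp1, a secreted lipid-mobilising glycoprotein, rose by 4.25 ± 0.33 (limma adjusted p = 0.0258). Pigr, which carries polymeric immunoglobulin across epithelium, rose by 3.85 ± 0.35, and its neighbour Fcamr, a receptor for IgA and IgM, by 3.85 ± 0.22 (limma adjusted p = 0.0383 and 0.0134). Chst11, which sulfates chondroitin, read 6.47 and 6.25 in wild type and 10.69 and 10.54 in knockout (4.25 ± 0.13, limma adjusted p = 0.00423). Ugt8a, which adds galactose to ceramide, read 6.76 and 6.24 against 11.26 and 11.17 (4.71 ± 0.19, limma adjusted p = 0.00628). For both of these sugar-chain genes the genotypes stood over 4 units apart.

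Among enzyme families, 6 of 94 cytochrome P450 genes were called higher and 1 lower, with a family median of 0.058. Over all genes 0.265% were called higher and 0.146% lower. The called members that rose were Cyp2e1, Cyp2j13, Cyp7b1, Cyp2d9, Cyp2d10 and Cyp2d13, and Cyp4a14 fell. Cyp2d9, a steroid hydroxylase, read 11.77 and 11.62 in wild type and 16.16 and 16.23 in knockout (4.50 ± 0.15, limma adjusted p = 0.00425). Of 11 UDP-glucuronosyltransferases 3 were called higher and 0 lower, with a median of 0.667. Of 19 carboxylesterases 2 were called higher, Ces1f by 3.14 and Ces1g by 3.47. Of 23 glutathione transferases 1 was called, Gsta4, which clears aldehydes from oxidised lipid and was lower by -2.05. None of 21 sulfotransferases and none of 20 aldehyde dehydrogenases was called by limma, with 2 and 6 under 0.05 before adjustment. These paralogs are similar in sequence, and how far their probes cross-hybridise was not tested.

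Of the carriers, 2 of 24 Slc22 genes were called higher and 2 lower, beside 0.265% and 0.146% of all genes. Slc22 genes encode carriers of organic anions and cations, and 8 of them lie in a row in the RefSeq gene order on chromosome 19. In this row Slc22a19 was lower (16.09 and 15.96 in wild type, 13.90 and 13.65 in knockout; -2.25 ± 0.17, limma adjusted p = 0.0249). Slc22a28 was higher (14.87 and 15.41 against 17.89 and 17.72; 2.67 ± 0.23, limma adjusted p = 0.0369). The next gene, Slc22a29, was lower (11.84 and 12.01 against 9.14 and 8.88; -2.91 ± 0.15, limma adjusted p = 0.00958). Slc22a30, after it, was higher by 3.03 ± 0.20 (limma adjusted p = 0.0196). Neighbouring genes of the row thus differed in opposite directions. Slc22a26 and Slc22a27, between Slc22a19 and Slc22a28, had differences of -2.06 and -1.75 and limma adjusted p of 0.0501 and 0.0865. Slc22a8 and Slc22a6, known renal organic anion carriers at the end of the row, had differences of -0.85 and 1.504 and were not called.

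**Figure D3:**
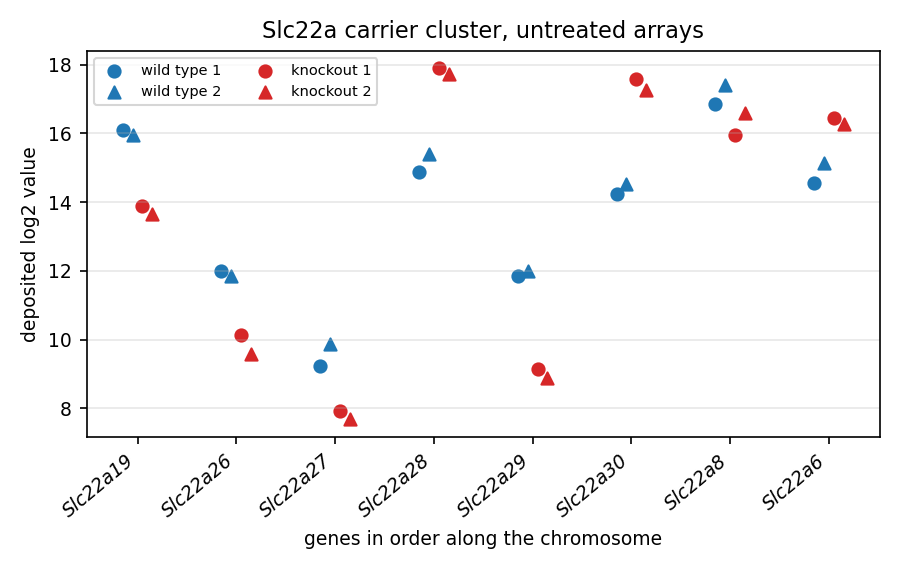
Deposited log2 value (vertical axis) of the 8 Slc22 carrier genes of chromosome 19 in their RefSeq order (horizontal axis) on the 4 untreated arrays, circles and triangles for replicates 1 and 2, blue wild type and red knockout. Slc22a28 and Slc22a30 lie higher in knockout and Slc22a29, between them, lower.

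Over all 97 called protein-coding genes, 12 pairs were direct neighbours in the RefSeq order. In 9 pairs both members changed the same way, among them Ugt2b5 with Ugt2b37, Ces1f with Ces1g, Cyp2d10 with Cyp2d9, and Nat8f5 with Nat8. In 3 pairs they changed in opposite ways, 2 of them in the Slc22 row and the third Akr1c14 (1.41) with Akr1c18 (-4.90). How many neighbouring pairs 97 genes would give without regard to their calls was not tested. Several pairs are paralogs, and how far their probes cross-hybridise was not tested either.

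Slc17a2, an organic anion and phosphate carrier, read 7.66 and 7.47 in wild type and 4.59 and 4.42 in knockout (-3.06 ± 0.11, limma adjusted p = 0.00497). It was the only called member of 9 Slc17 genes, beside 0.411% of all genes called. Slc39a5, a zinc carrier, was lower by -2.29 (limma adjusted p = 0.0413). None of 15 Slco genes was called by limma, Slco1a1 included, and 7 were under 0.05 before adjustment.

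Lists of lipid metabolism gave 0 to 2 calls each, beside 0.411% of all genes called. Of 24 measured genes of fatty acid and triglyceride synthesis, 1 was called higher and 1 lower, and the median was 0.07. The called pair was Mogat1, which makes diacylglycerol (7.27 and 7.55 in wild type, 9.12 and 9.16 in knockout; 1.73 ± 0.13, limma adjusted p = 0.0249), and Elovl6, which lengthens palmitate (11.23 and 10.90 against 8.92 and 9.23; -1.99 ± 0.18, limma adjusted p = 0.0374). Scd1, the stearoyl-CoA desaturase, read 13.96 and 13.47 against 11.28 and 12.15 and was not called (limma adjusted p = 0.128). Of 31 measured genes of the PPAR receptors and fatty acid oxidation, 2 were called lower and 0 higher. They were Cyp4a14 and the peroxisomal thioesterase Acot3 (11.25 and 11.92 against 8.12 and 8.17; -3.44 ± 0.24, limma adjusted p = 0.0196). Cd36, a fatty acid uptake receptor, had a difference of 2.65 and Angptl4, an inhibitor of lipoprotein lipase, one of 1.69, with limma adjusted p of 0.063 and 0.0522. Of 15 measured genes of cholesterol synthesis and uptake none was called by limma (4 before adjustment), and the median was -0.01. Of 18 measured genes of cholesterol efflux and oxysterols, Cyp7b1 alone was called.

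Of 30 measured genes of eicosanoid metabolism 2 were called higher (0.265% of all genes), Cyp2j13 and Ephx2. Ephx2, the soluble hydrolase that breaks down fatty acid epoxides, read 10.96 and 11.41 in wild type and 13.24 and 13.24 in knockout (2.05 ± 0.19, limma adjusted p = 0.0383). Of 25 measured steroid-converting enzymes 1 was called, Akr1c18. Hsd17b11 (2.92, limma adjusted p = 0.0537) and Hsd17b2 (2.66, limma adjusted p = 0.0812), both of which oxidise steroids, were not called. Of 7 measured steroid receptors none was called by limma, and none of 10 measured genes that respond to oestrogen in other tissues, Pgr among them. Each of these lists had 2 genes under 0.05 before adjustment.

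Aadat, an aminotransferase of the kynurenine pathway, read 17.23 and 16.68 in wild type and 14.20 and 14.13 in knockout (-2.79 ± 0.23, limma adjusted p = 0.0318). Kyat3, which carries out a related step, read 9.92 and 9.64 against 7.81 and 7.93 (-1.91 ± 0.14, limma adjusted p = 0.0231). Kyat3 was named after its values were seen. In both genes the genotypes stood clear of each other by over 1.5 units.

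Cish, Socs2 and Igfals were among the called genes that fell. Cish and Socs2 encode feedback inhibitors that growth hormone and prolactin switch on through the transcription factor STAT5. Igfals encodes the serum subunit that holds insulin-like growth factors. These 3 genes were put together after the calls were seen, with no list fixed for them. Cish read 9.25 and 8.98 in wild type and 6.59 and 6.57 in knockout (-2.54 ± 0.13, limma adjusted p = 0.00942). Socs2 read 8.90 and 8.75 against 6.66 and 6.55 (-2.21 ± 0.11, limma adjusted p = 0.00942). Igfals read 10.32 and 9.81 against 6.79 and 6.66 (-3.34 ± 0.19, limma adjusted p = 0.0139). All 3 genes had knockout arrays within 0.2 units of each other and below both wild type arrays. They were taken from the called genes, and a call with 2 arrays a group favours such values, so this adds no support. In the family of 8 Socs genes with Cish, 2 were called lower (0.146% of all genes), and these are Cish and Socs2 themselves. In this family 4 differences were positive and 4 negative, and the median was 0.012. Other genes of growth hormone and insulin-like growth factor signalling were not counted as a set. Socs1 (0.09) and Socs3 (0.17) were not called. Stat5a and Stat5b themselves had differences of -0.02 and -0.10, and that of Stat5a is positive under quantile normalization.

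The promoters of the called genes were searched for TTCNNNGAA, the palindrome that STAT proteins bind, in RefSeq windows of the GRCm38.p6 build that run from 250 bases before to 50 bases after the start of transcription. The motif was chosen after the calls were seen, and since the pattern is its own reverse complement, a search of one strand finds the matches on both. It is in 8.3% of all 32851 promoter windows, in 3 of 74 windows of genes that were higher (4.05%), and in 9 of 38 windows of genes that were lower (23.7%). The 8 lower genes with it are Abcc4, Cish, Igfals, Mir99ahg, Pcolce2, Slc17a2, Slc22a19 and Ston2. Cish and Slc22a19 each hold it more than once, which 0.457% of all windows do. Their windows are shown because of these paired sites, with each motif in capitals; Cish lies at chr9:107296409-107296708 on the plus strand and Slc22a19 at chr19:7711261-7711560 on the minus strand.
Cish: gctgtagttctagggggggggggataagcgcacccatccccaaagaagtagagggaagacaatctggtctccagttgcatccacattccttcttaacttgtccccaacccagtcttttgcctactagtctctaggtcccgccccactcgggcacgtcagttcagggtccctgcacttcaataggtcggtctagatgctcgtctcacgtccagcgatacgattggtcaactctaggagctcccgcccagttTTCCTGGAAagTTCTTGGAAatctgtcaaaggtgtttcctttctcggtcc
Slc22a19: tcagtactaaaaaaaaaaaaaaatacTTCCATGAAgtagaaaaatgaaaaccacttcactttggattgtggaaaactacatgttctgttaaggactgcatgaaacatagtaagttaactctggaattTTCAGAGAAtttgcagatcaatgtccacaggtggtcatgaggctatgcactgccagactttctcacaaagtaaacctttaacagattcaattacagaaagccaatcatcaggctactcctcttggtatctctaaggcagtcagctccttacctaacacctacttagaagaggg
The Cish sites lie close together at the start of transcription. A match describes the letters of a window and not a bound site. The oestrogen response element GGTCANNNTGACC is in 0.07% of all windows and the androgen response element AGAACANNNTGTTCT in 0.00913%, and neither is in a window of a called gene. At these shares a match in the 74 and 38 windows was unlikely beforehand, so the absence says nothing about such sites.

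MicroRNA loci were named after their values were seen. Mir99a read 7.88 and 7.91 in wild type and 6.56 and 6.63 in knockout (-1.29, limma adjusted p = 0.0196). Mir125b-2 read 7.48 and 7.56 against 6.39 and 6.28 (-1.19, limma adjusted p = 0.0277). Both lie in the host transcript Mir99ahg, which read 8.40 and 8.30 against 7.32 and 7.42 (-0.98, limma adjusted p = 0.0494). The 3 probesets of this locus fell together, while Mirlet7c-1, in the same host, was dim on every array (3.73 to 4.15) and not called. On chromosome 11, Mir196a-1 read 11.25 and 10.99 in wild type and 9.29 and 9.57 in knockout (-1.69, limma adjusted p = 0.0413). The array values are of gene loci and cannot separate a mature microRNA from its host RNA. The mature sequences from RefSeq follow for the 3 called loci, with the seed, bases 2 to 8, in capitals; they lie at chr16:77598940-77598961, chr16:77646279-77646300 and chr11:96265187-96265208, all on the plus strand of GRCm38.p6.
miR-99a-5p: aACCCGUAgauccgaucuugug
miR-125b-5p: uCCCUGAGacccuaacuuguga
miR-196a-5p: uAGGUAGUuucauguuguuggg
The 3 seeds differ from one another.

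No marker of a glomerular cell type was called, beside 0.411% of all genes. The differences of these lists rested largely on 1 wild type array. Of 10 measured podocyte markers all 10 differences were negative, with a median of -0.80, and none was called by limma (2 before adjustment). The list mean was 10.80 and 10.13 in wild type and 9.57 and 10.00 in knockout. The wild type replicate 2 array and the knockout replicate 2 array differed by little, and most of the gap lay in the replicate 1 arrays. Nphs1, the slit diaphragm protein nephrin, read 12.09 and 10.68 in wild type and 10.08 and 10.77 in knockout, so its groups overlap. Npnt, a podocyte matrix protein that binds integrin, was nearest to a call (-1.23, limma adjusted p = 0.0681). The 11 endothelial markers had a median of -0.39, with 10 negative and 0 under 0.05 before adjustment, and the 8 mesangial markers one of -0.32, with 2 before adjustment. The endothelial list mean overlapped between the genotypes (10.53 and 9.86 in wild type, 9.65 and 10.09 in knockout). Without the wild type replicate 1 array the medians were -0.27 for podocyte, -0.03 for endothelial and -0.001 for mesangial markers. In bulk extracts fewer cells of a type and less RNA per cell cannot be told apart.

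**Figure D4:**
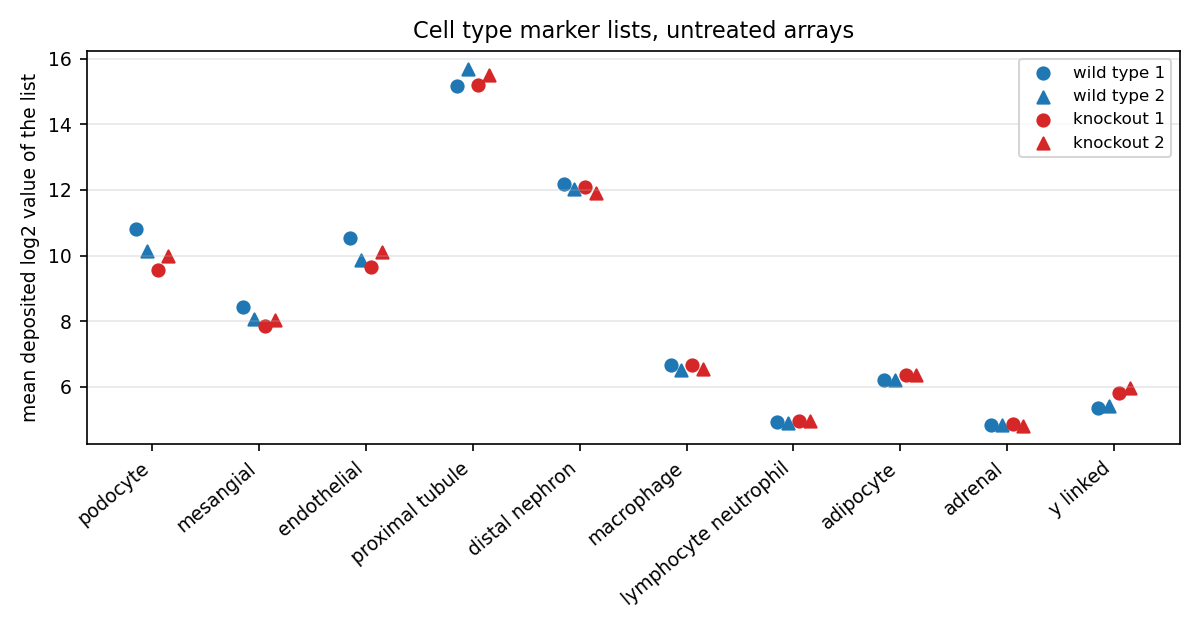
Mean deposited log2 value (vertical axis) of the marker list of each cell type (horizontal axis) on the 4 untreated arrays, circles and triangles for replicates 1 and 2, blue wild type and red knockout. Podocyte means are 10.80 and 10.13 in wild type and 9.57 and 10.00 in knockout, and proximal tubule means are 15.18 and 15.69 against 15.20 and 15.50.

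Proximal tubule markers were well detected in these glomerular extracts. The mean of the 11 genes was 15.18 and 15.69 in wild type and 15.20 and 15.50 in knockout, with a median difference of -0.05 and no calls by limma, with or without adjustment. The genotypes overlapped in this tubule level. Many genes of the sex-biased lists belong to the proximal tubule, and the part of tubule content in their differences was not tested. Distal nephron markers had a median of -0.17. Macrophage markers had a median of 0.04, and T cell, B cell and neutrophil markers a median of 0.03 with list means near 4.9, below the array medians. None of these lists had a call by limma, beside 0.411% of all genes. Before adjustment, 3 distal nephron genes and 0 of the immune cell markers were under 0.05. The 7 adrenal markers had a median of -0.03 and 9 tubule injury genes one of -0.04, with 0 and 2 genes before adjustment and no call by limma.

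Lists of inflammation and matrix gave 1 call in all, beside 0.411% of all genes called. At this share few or no calls are likely in lists of this size, so their absence says little. Of 22 measured interferon response genes Gbp3, an interferon-induced GTPase, was called lower (8.52 and 8.45 in wild type, 6.97 and 6.63 in knockout; -1.69 ± 0.14, limma adjusted p = 0.0335), and the list median was -0.08. None of 18 complement genes, none of 6 MHC class II genes and none of 20 matrix genes was called by limma, with 3, 0 and 6 under 0.05 before adjustment. Fibronectin, Fn1, read 10.06 and 11.16 in wild type and 8.38 and 8.14 in knockout, with a limma adjusted p of 0.111. Immediate early genes, which move with handling of tissue, had a median of 0.01 over 12 genes, and 14 clock genes one of 0.03, again without a call by limma (1 and 3 before adjustment). Of 8 measured adipocyte markers 7 had positive differences, the median was 0.20 and 4 were under 0.05 before adjustment. The list mean was 6.21 and 6.21 in wild type and 6.35 and 6.36 in knockout. The 1 called member went the other way: Lgals12, a galectin of lipid droplets, fell by 1.12. It also lies near the Slc22 row, with 1 gene between.

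The arrays of later times were not used to call these genes, and they show how the genotype difference stood in other mice. At 6 days after serum, 79 of the 80 genes higher in untreated knockout were again higher, the exception being Cyp2d13, and 44 of 44 lower genes were again lower. Over all genes, 45.5% of the differences at 6 days were positive and 54.5% negative. Both knockout arrays lay above both wild type arrays for 76 of the 80 genes, against 15.8% of all genes. Both lay below for 44 of 44, against 20.7% of all genes. The medians were 1.89 (2.19 untreated) and -2.15 (-1.95 untreated). Fitted alone, the 4 arrays at 6 days called 113 genes (0.375%). Of these 52 were among the untreated calls, all in the same direction, which is 41.9% of the untreated calls and 46.0% of the calls at 6 days.

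**Figure D5:**
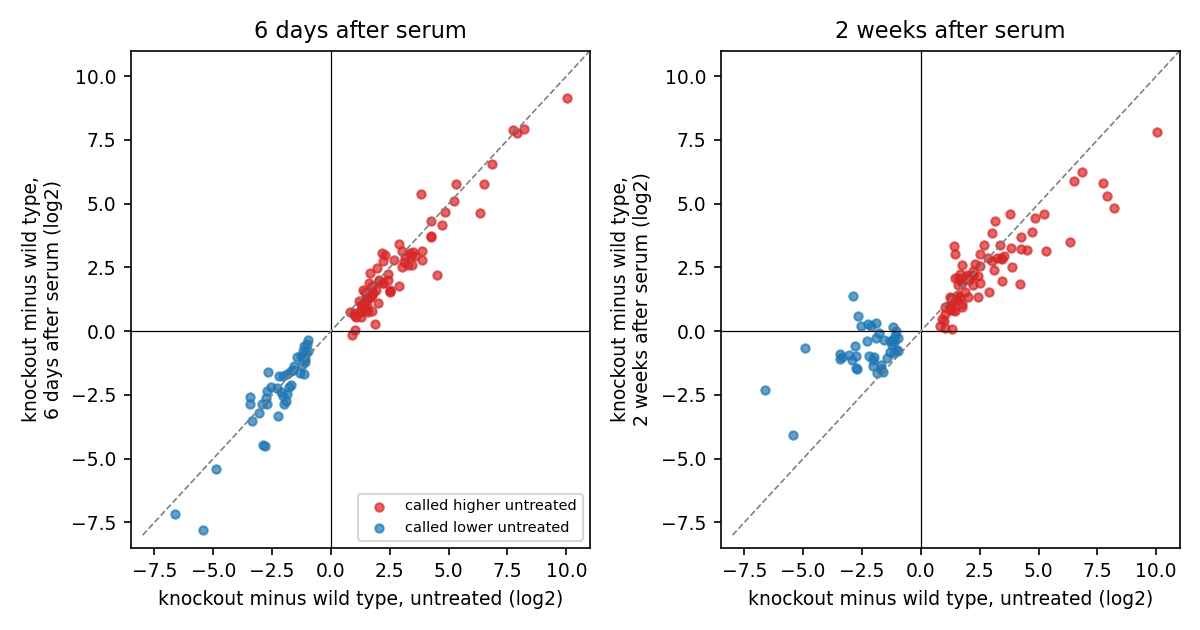
Knockout minus wild type difference of the 124 genes called in untreated mice (horizontal axis, deposited log2 units) against that at 6 days (left) and 2 weeks (right) after serum (vertical axis); red genes were called higher and blue lower, and the dashed line marks equal differences. At 2 weeks the genes called lower lie nearer to 0, with a median of -0.75 against -1.95 untreated.

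At 2 weeks the higher genes kept their direction and the lower genes had smaller differences. All 80 higher genes kept their sign, with a median of 2.15, and 71 had both knockout arrays above both wild type arrays (13.9% of all genes). Of 44 lower genes 37 kept their sign, with a median of -0.75, and 27 had both knockout arrays below (22.8% of all genes). Over all genes, 41.6% of the differences at 2 weeks were positive and 58.4% negative. The 7 that turned were Cish, Sec14l3, Slc22a19, Mir125b-2 and 3 predicted loci. The 4 arrays at 2 weeks fitted alone called 0 genes (0.0%), with 1146 at an unadjusted p under 0.05. Abcc3 read 13.86 and 12.53 in wild type at 6 days but 8.52 and 8.77 at 2 weeks, with knockout at 5.98 and 6.05 and then 5.96 and 6.69. Its difference was thus -7.18 at 6 days and -2.32 at 2 weeks, with the wild type arrays lower at 2 weeks and the knockout arrays at a like level. Slc7a13 differed by 9.16 at 6 days and 7.82 at 2 weeks, where its knockout arrays read 17.22 and 11.26. The mean of the male-biased list at 2 weeks was 10.05 and 10.02 in wild type and 15.64 and 12.1 in knockout. That of the female-biased list was 9.72 and 10.52 in wild type and 9.54 and 9.29 in knockout. The tubule level also differed at 2 weeks. The mean of the 11 proximal tubule markers was then 12.58 and 13.86 in wild type and 15.06 and 13.53 in knockout. On the untreated arrays it was 15.18 to 15.69. The part of this shift in the 2-week differences was not tested.

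The difference between the genotype differences was tested over all 16 arrays. These include the 18-hour replicate 2 arrays with their opposite differences. A lack of calls therefore does not show that the differences were alike. Against 6 days limma called 0 genes, with 395 at an unadjusted p under 0.05. Against 2 weeks it called 0 genes, with 2244 at an unadjusted p under 0.05. Over 14 arrays 1 gene was called against 2 weeks, Slc17a2 (-3.06 untreated, -0.92 at 2 weeks; limma adjusted p = 0.0223). Leaving out the wild type replicate 1 array of 2 weeks gave 1664 calls, and leaving out the knockout replicate 2 array of 2 weeks gave 535. At 18 hours, the replicate 1 arrays repeated the sign of 80 of 80 higher and 43 of 44 lower genes, and the replicate 2 arrays of 0 of 80 and 0 of 44.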

How the data were processed

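RNA of glomerular extracts (10 ng, biotin-labelled with the Affymetrix WT Pico kit, per the labels' protocols) was measured on 16 arrays. The authors deposited log2 values for 72688 probesets, between 2.22 and 19.93, with array medians of 5.57 to 5.9. Affymetrix Expression Console and Transcriptome Analysis Console are named in the submitters' processing notes; how the values were normalized, on which build, and in which batches is not given in the sources used here. Probesets with exactly 1 symbol (30604; 2146 have several and 39938 none) were kept, 827 symbols were updated through RefSeq, and for the 355 genes with several probesets the one with the highest mean over 16 arrays was used, which left 30142 genes.

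The 2 knockout and 2 wild type untreated arrays were compared with limma 3.58.1 in R 4.3.3 (lmFit, eBayes with an intensity trend, 2 residual and 2.98 prior degrees of freedom), with Benjamini-Hochberg adjustment over all genes and calls at 0.05. The scripts were checked on simulated data. Differences are knockout minus wild type, with the standard error of the fit. The number of arrays limits the precision, and no filter on dim genes was applied. The labels describe 2 mice a group.

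Members, lists and the choice of the 4-array fit were made with earlier results of these data known. Genes named are Esr1, the 15 largest rises and falls among called genes, called members and up to 4 others of each list or family, and the 3 smallest p-values; genes named for other reasons are marked in the text, except members of neighbouring pairs and of the motif count, which were also named after their values were seen. Alternatives were other sets of arrays, other moderation, probeset rules, a filter on dim genes, other normalization, the replicate number as a block, a tissue covariate and leaving out each array. Promoter and microRNA sequences are RefSeq's, on GRCm38.p6.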

Additional observations from a re-analysis of the deposited data

Results flagged for a closer look

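Sec14l3, a lipid-binding protein of the SEC14 family, had genotype differences of opposite sign untreated and at 2 weeks. Untreated, it read 9.10 and 8.97 in wild type and 6.42 and 6.33 in knockout, a difference of -2.66 with a limma adjusted p of 0.00499. At 2 weeks it read 5.88 and 6.09 in wild type and 6.94 and 6.20 in knockout, a difference of 0.578. Both knockout arrays were thus below both wild type arrays untreated and above them at 2 weeks, there by a narrow margin. At 2 weeks 13.9% of all genes had both knockout arrays above both wild type arrays. The wild type values at 2 weeks were lower than untreated and lay near the array medians of 5.57 to 5.9. The test of the difference between these differences over 16 arrays gave a limma adjusted p of 0.431. No cause was tested.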

How the results depend on the processing

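The count of 124 called genes became 0 over all 16 arrays and 0 with the tubule minus podocyte level as a covariate in that fit (1749 genes at an unadjusted p under 0.05), which says nothing about tubule content since that fit had no calls to lose. It became 51 over 14 arrays and 51 over 12 arrays without any 18-hour array, and 353 when only the 16516 genes above the median of all probesets were tested. Other moderation, probeset rules and normalization gave 121 to 173 calls. Leaving out any 1 untreated array gave 0 calls each time. The replicate number as a block gave 210 calls, 122 of them among the 124; the numbers were not taken as pairs, since same-numbered deviations correlated across genes at 0.043. Against 2 weeks, the difference between genotype differences gave 1 call over 14 arrays and 1 over 12 arrays, and leaving out single arrays gave 0 to 1664 calls. With 1 array left out, the median of the male-biased list ranged from 4.82 to 5.81 and that of the female-biased list ranged from -4.65 to -3.32. Of 81 genes named, 1 changed sign: Stat5a, at 0.093 under quantile normalization. Quantile normalization and median centring moved the median of all genes by 0.02 and 0.01. Fits of the later arrays alone, and the Socs family and Mir99ahg locus, were chosen after seeing the data. With 2 arrays a group, a difference that was not called may still exist. The causes of these changes were not tested.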
